A study of Mus musculus with 16 samples.

Results

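The semaphorins, plexins, ephrins, Eph receptors, Slits, Robos, netrins and Unc5 receptors of the mouse retina were followed over 4 treatments of the eye. Members were the array probes whose gene name belongs to one of these families, with Efnb2 and Ephb4 left out by the rule. One probe stood for each gene, the one with the highest mean intensity. The rule gave 61 genes of 26014 gene names on the array, and it used no measured difference between treatments. Dcc, a netrin receptor that the rule also names, is not analysed here.

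Guidance ligands and receptors steer growing axons by attracting or repelling the growth cone. Semaphorins signal through plexins, with neuropilins as partners of the secreted class. Ephrins bind Eph receptor tyrosine kinases on the neighbouring cell, Slits bind Robos, and netrins bind Dcc or Unc5 receptors. In the retina these families lay out the path of ganglion cell axons to the brain, and several members (Plxnd1, Robo4, Unc5b and Epha2 among them) are also known from blood vessel endothelium.

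Retinas came from C57Bl6 mouse pups injected into the vitreous at 8 days of age and were taken after 24 hours. The groups were VEGF-A (1 µg, 5 arrays), the vessel growth factor; Dll4-Fc (4 µg, 4 arrays), which carries the Notch ligand Dll4; VEGF Trap (3 arrays), a decoy that binds VEGF, for which the labels give neither dose nor age; and hFc alone (4 µg, 4 arrays), the control protein of the design. Each array carried the labelled RNA of 1 sample in Cy3 and a pool of equal amounts of RNA from the experiment in Cy5, with no dye swap, so each value is a log2 ratio of sample over the same reference. Nothing in the labels tells separate animals from repeat samples, so p-values measure the spread between these arrays, which may be technical. The codes in the titles of hFc 1 and hFc 2 begin alike, and whether both come from 1 animal is not stated. Whole retina was used, so fewer cells of a type and less RNA per cell cannot be told apart.

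Between 84.9% and 91.0% of spots were well above background in Cy3 on the 16 arrays, and none was saturated. The 4 hFc arrays lay together on slide 1 and the 4 Dll4-Fc arrays on slide 2, so slide and treatment cannot be told apart in any comparison with either group. VEGF-A and VEGF Trap arrays shared slides 3 and 4. The hFc arrays had 2350 to 2599 spots marked as outliers by the scanner software, against 12 to 213 on the other arrays, and these spots were left out. The marks were dense in a band between array rows 67 and 231. For that reason Robo3, Robo4 and Sema6d had no hFc value on their brightest probe, and 58 of the 61 members could be compared with hFc. A single hFc array gave a value for Efna5, Epha4, Epha5, Robo1, Sema5b and Sema6b, and the fit then takes the spread between hFc arrays to be that of the other groups; Sema3f, Sema4a and Sema4g had 2, and Plxnb1, Robo2 and Slit1 had 3. All 61 members passed the filter on dim probes.

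**Figure D1:**
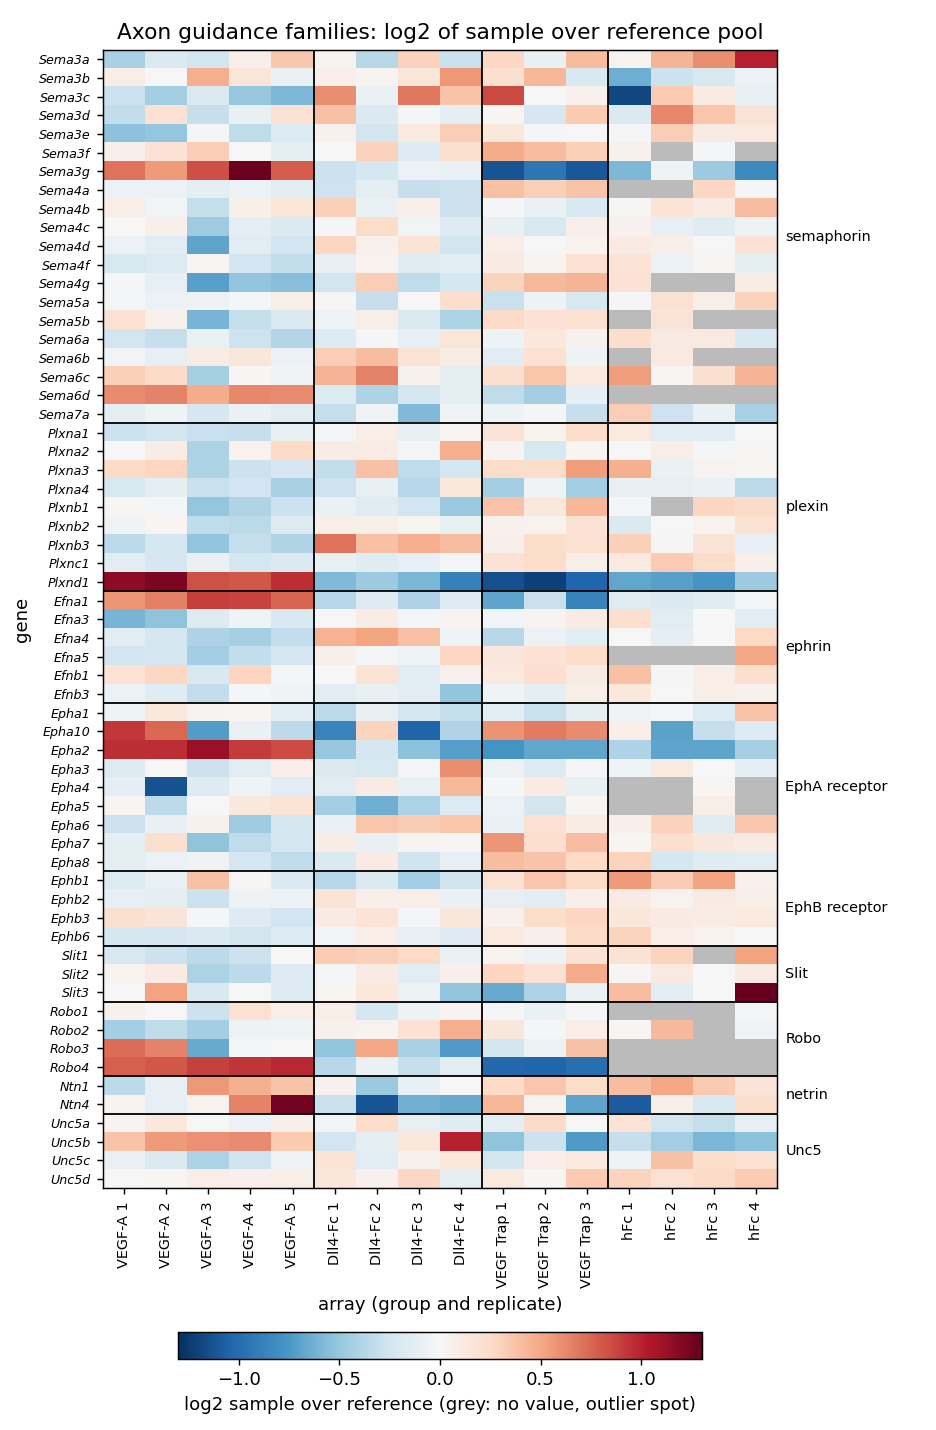
Heat map of log2 sample over reference for the 61 members (rows, by family) on the 16 arrays (columns, by group); grey cells have no value because the spot was marked as an outlier. Plxnd1, Epha2, Sema3g, Efna1, Robo4 and Sema6d stand above 0 on the 5 VEGF-A arrays and below 0 on the Dll4-Fc and VEGF Trap arrays, and the grey cells lie in the hFc columns.

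The first question was which guidance genes differ in retinas given VEGF-A from those given hFc. Of the members, 5 rose: Plxnd1, Epha2, Sema3g, Unc5b and Efna1 were 1.84 to 3.14 times higher. Another 8 fell, by 0.31 to 0.79 on the log2 scale: Efna5, Slit1, Plxnb3, Sema3e, Unc5c, Plxnc1, Sema6a and Ephb6. Calls are limma tests with Benjamini-Hochberg adjustment over all genes tested, at an adjusted p of 0.05. The 13 members called were 22.4% of the 58 tested, where 10.2% of all 23063 genes tested were called, 5.91% rising and 4.28% falling. Of the 58, 11 had a positive difference and 47 a negative one, beside 9627 positive and 13428 negative over all genes tested. Their median difference was -0.19 on the log2 scale, beside -0.05 over all genes tested. The arrays of the groups did not overlap for 19 of the 58 members, against 3699 of the 23063 genes (16%).

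The calls were spread over the families. Of 19 semaphorins tested, 1 rose and 2 fell; of 9 plexins, 1 rose and 2 fell; of 6 ephrins, 1 rose and 1 fell. Among 9 EphA receptors only Epha2 was called, and among 4 EphB receptors only Ephb6, both in this comparison. Of 3 Slits, Slit1 was called, and of 4 Unc5 receptors, 1 rose and 1 fell. Neither of the 2 Robos with an hFc value nor either netrin was called. Counted by role, 2 of 30 ligands rose and 4 fell, and 3 of 28 receptors rose and 4 fell. The 12 semaphorins of classes 4 to 7 tested, most of them bound to the membrane, ran from -0.52 to -0.01, and only Sema6a was called; Sema6d had no hFc value on its brightest probe and is not among them.

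Promoters of the 4 members that differed most between VEGF-A and VEGF Trap retinas are shown so that the letters before their start sites can be set side by side. Each is the last 210 bases before the RefSeq start on GRCm38.p6, in the direction of the gene: Plxnd1 at chr6:115995006-115995215 on the minus strand, Epha2 at chr4:141301011-141301220 on the plus strand, Sema3g at chr14:31217663-31217872 on the plus strand and Robo4 at chr9:37401762-37401971 on the plus strand. Capitals mark the short core GGAAG that ETS factors bind (CTTCC on the other strand), GGGCGTGG as bound by KLF factors, and TGACGTCA, the cAMP response element.
Plxnd1: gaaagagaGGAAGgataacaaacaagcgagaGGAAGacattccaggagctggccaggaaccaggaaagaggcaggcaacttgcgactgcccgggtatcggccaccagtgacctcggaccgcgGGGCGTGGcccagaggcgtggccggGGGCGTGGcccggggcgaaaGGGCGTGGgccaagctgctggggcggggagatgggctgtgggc
Epha2: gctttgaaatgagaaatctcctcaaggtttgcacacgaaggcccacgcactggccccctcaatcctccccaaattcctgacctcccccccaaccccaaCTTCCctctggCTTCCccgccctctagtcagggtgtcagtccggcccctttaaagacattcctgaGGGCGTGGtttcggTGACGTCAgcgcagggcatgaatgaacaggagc
Sema3g: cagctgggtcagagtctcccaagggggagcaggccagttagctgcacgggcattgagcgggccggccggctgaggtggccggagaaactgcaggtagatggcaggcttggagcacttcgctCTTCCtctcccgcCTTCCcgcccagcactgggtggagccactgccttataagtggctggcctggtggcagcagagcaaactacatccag
Robo4: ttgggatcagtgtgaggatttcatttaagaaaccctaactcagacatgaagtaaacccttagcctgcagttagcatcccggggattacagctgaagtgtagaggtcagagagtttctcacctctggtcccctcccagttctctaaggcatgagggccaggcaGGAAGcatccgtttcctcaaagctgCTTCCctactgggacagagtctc

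Within 250 bases before the start, GGAAG lay on either strand in all 4 of these promoters and in 39 of the 52 members that have a RefSeq window. It lay in 66.9% of all 27025 genes with such a window, each gene counted once over its windows. GGGCGTGG occurred 3 times in Plxnd1, at 88, 63 and 43 bases before the start, and once in Epha2, at 47 bases. It was present in 7 of the 52 members and in 5.48% of all genes. TGACGTCA lay in Epha2 alone among members, at 33 bases before the start, and in 1.77% of all genes. These 3 motifs were chosen after the sequences had been read. GGAAG is part of the longer ETS core CGGAAG, which 6 members and 15.3% of all genes held. Of the other motifs searched on both strands, TGGGAA (bound by the Notch effector RBPJ) lay in 11 members and 24.1% of all genes. ACGTG (hypoxia response) lay in 11 members and 18.5% of all genes, and TGANTCA (AP-1) in 3 members and 7.82% of all genes. A match is only a match of letters.

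Plxnd1, the endothelial plexin that receives Sema3e, read 1.16, 1.23, 0.83, 0.81 and 0.96 on the VEGF-A arrays, against -0.67, -0.71, -0.76 and -0.48 on the hFc arrays. The groups were far apart, and the mean of 1.00 ± 0.19 in VEGF-A retinas stood against -0.66 ± 0.13 in hFc retinas (SD, n = 5 and 4). The difference was 1.65 (SE 0.11), or 3.14 times, with an adjusted p of 3.71e-08.

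Epha2, a receptor for ephrin-A1, read 0.96, 0.96, 1.12, 0.91 and 0.85 on the VEGF-A arrays, against -0.40, -0.69, -0.69 and -0.43 on the hFc arrays. Every VEGF-A array was above every hFc array. The difference was 1.51 (SE 0.10), or 2.84 times, with an adjusted p of 4.38e-08, and 3 other Epha2 probes rose too, by 1.87, 2.00 and 1.89. Its ligand Efna1 read 0.57, 0.65, 0.90, 0.88 and 0.76 on the VEGF-A arrays, against -0.16, -0.18, -0.16 and -0.011 on the hFc arrays. Receptor and ligand were thus both higher on every VEGF-A array; for Efna1 the difference was 0.88 (SE 0.11, adjusted p = 5.48e-05), and a second Efna1 probe gave 0.78.

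Sema3g, a secreted semaphorin, read 0.71, 0.56, 0.83, 1.28 and 0.78 on the VEGF-A arrays, against -0.59, -0.055, -0.48 and -0.82 on the hFc arrays. Its arrays spread more within both groups than those of Plxnd1, without overlap. The difference was 1.32 (SE 0.15, adjusted p = 2.03e-05), or 2.49 times. Unc5b, a netrin receptor also known from vessel sprouts, read 0.37, 0.55, 0.60, 0.61 and 0.34 on the VEGF-A arrays, against -0.30, -0.45, -0.60 and -0.53 on the hFc arrays. These groups did not overlap either, and the difference was 0.97 (SE 0.20, adjusted p = 0.00467), or 1.95 times.

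**Figure D2:**
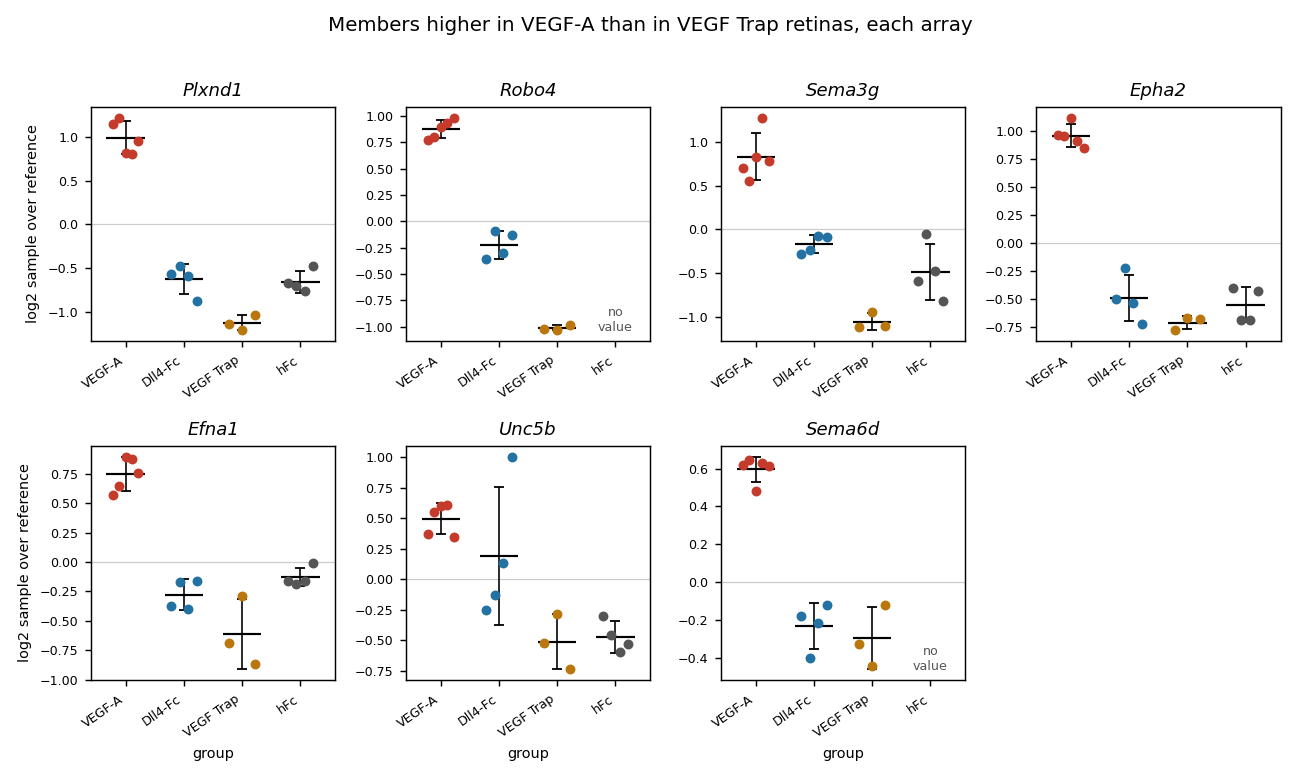
Log2 sample over reference on each array for the 7 members higher in VEGF-A than in VEGF Trap retinas, by group; points are arrays, long horizontal lines are group means and error bars are SD. The VEGF-A points lie above those of VEGF Trap in all 7 panels; Robo4 and Sema6d have no hFc points, and 1 Dll4-Fc array of Unc5b stands at 1.00, above the VEGF-A arrays.

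Robo4, the Robo of endothelium, had no hFc value on its brightest probe but carries 2 probes with the same 60-base sequence, in array rows 200 and 14. The second probe lay outside the band of outlier spots and read 0.76, 0.77, 0.91, 0.77 and 0.99 on the VEGF-A arrays, against -0.55, -0.57, -0.64 and -0.61 on the hFc arrays. The groups were wide apart, and the difference was 1.43 (SE 0.08), with an adjusted p over all probes of 5.23e-09. With outlier spots kept, the brightest probe read -0.64, -0.64, -0.64 and -0.74 on the hFc arrays. Sema6d, a membrane semaphorin that binds Plxna1, also lacked hFc values on its brightest probe, and its other 2 probes were higher in VEGF-A than in hFc retinas by 1.18 (SE 0.34, adjusted p = 0.0433) and 1.01 (SE 0.23, adjusted p = 0.0123). These probes were looked up because the brightest had no hFc value. On the Sema6d probe at 1.18, VEGF-A 3 and VEGF-A 5 read 0.14 and 0.21, below hFc 1 at 0.25. On the Sema6d probe at 1.01 the groups did not overlap.

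Among the members that fell, Plxnc1, the receptor of Sema7a, read -0.15, -0.22, -0.089, -0.23 and -0.19 on the VEGF-A arrays, against 0.13, 0.33, 0.24 and 0.062 on the hFc arrays. All VEGF-A arrays were below 0 and all hFc arrays above it, for a difference of -0.37 (SE 0.07, adjusted p = 0.00187). Other probes of Plxnc1 were not called, and hFc 1 read -0.24 and -0.11 on them, within the range of the VEGF-A arrays. Efna5, an ephrin that helps to map ganglion cell axons onto their target, read -0.25, -0.21, -0.45, -0.32 and -0.23 on the VEGF-A arrays, and its difference of -0.79 (SE 0.13, adjusted p = 0.00187) rests on 1 hFc array, at 0.50. With outlier spots kept the other hFc arrays read -0.11, 0.12 and -0.056, and the difference was -0.41 (adjusted p = 0.0284). A second Efna5 probe gave -0.18 and was not called, and with the mean over its probes the difference was -0.28 (adjusted p = 0.22).

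Plxnb3, a receptor of Sema5a, fell by 0.45 (SE 0.09, adjusted p = 0.00494); from the VEGF-A arrays of slide 3 alone its adjusted p was 0.061, and with normexp background correction and loess the difference was -0.21 (adjusted p = 0.059). Slit1, a repellent for axons, fell by 0.56 (SE 0.12, adjusted p = 0.0063, 3 hFc arrays), and Ephb6, an Eph receptor without kinase activity, fell by 0.31 (SE 0.07, adjusted p = 0.0106). The arrays of these 3 genes did not overlap between the groups; with the outlier spot of Slit1 kept, hFc 3 read -0.11, above only 4 of the VEGF-A arrays, and the difference was -0.45.

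The calls of Sema3e, the ligand of Plxnd1, Unc5c, a netrin receptor, and Sema6a, a membrane semaphorin, were the least firm. Their differences were -0.45, -0.38 and -0.32, with adjusted p of 0.0342, 0.0357 and 0.0448, and their arrays overlapped between VEGF-A and hFc. Leaving out any one of VEGF-A 1, 2 or 4 or hFc 2, 3 or 4 ended the call of Sema3e (adjusted p 0.0647 to 0.114). For Unc5c any one of VEGF-A 2, 3 or 4 or hFc 2, 3 or 4 did so (0.0628 to 0.12), and for Sema6a any one of VEGF-A 1, 2, 4 or 5 or hFc 1, 2 or 3 (0.0765 to 0.133). Other probes of these 3 genes were not called, with differences between -0.18 and 0.18.

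**Figure D3:**
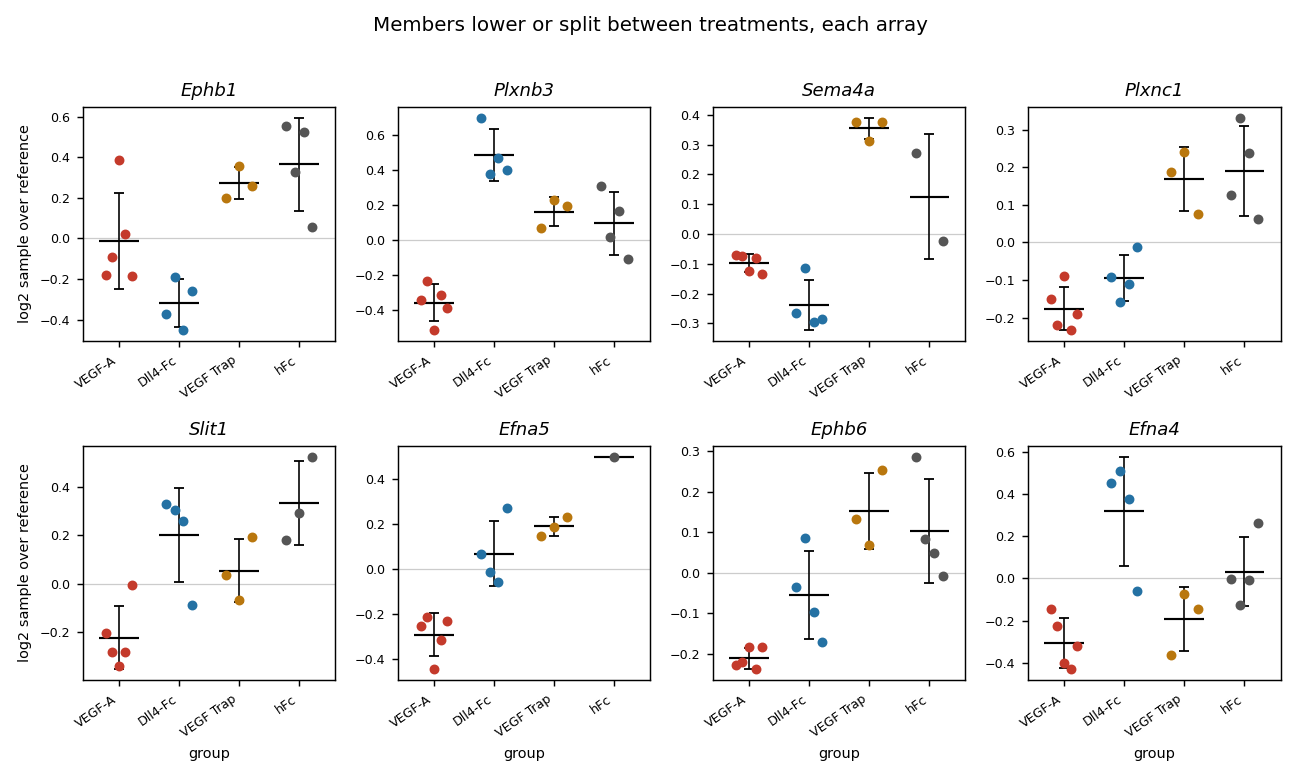
Log2 sample over reference on each array for 8 members with other patterns, by group; points are arrays, long horizontal lines are group means and error bars are SD. Plxnb3 has its highest points in Dll4-Fc and its lowest in VEGF-A, Ephb1 is lowest in Dll4-Fc, and Efna5 and Sema4a have 1 and 2 hFc points.

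Mean levels of vessel cell and cell-cycle markers were higher on the VEGF-A arrays than on the hFc arrays, as were the members that rose. The mean over the 9 endothelial markers with a value on every array was 0.53 to 0.64 on the VEGF-A arrays, -0.14 to 0.02 on the Dll4-Fc arrays, -0.99 to -0.86 on the VEGF Trap arrays and -0.33 to -0.22 on the hFc arrays. Against hFc, 8 of 10 endothelial markers rose with VEGF-A, Cldn5 fell and Tek was not called. With Dll4-Fc 4 of the 10 rose, and with VEGF Trap 9 fell. Mural cell markers averaged 0.38 to 0.50 on the VEGF-A arrays, against -0.80 to -0.53 on the hFc arrays; of 8 markers 4 rose and 2, Kcnj8 and Abcc9, fell, with differences from -2.13 to 4.25. The 4 cell-cycle genes averaged 1.05 to 1.37 on the VEGF-A arrays, against -1.36 to -0.56 on the hFc arrays. The 9 ganglion cell markers averaged -0.77 to 0.14 on the VEGF-A arrays, lowest on VEGF-A 1 and 2, against 0.08 to 0.18 on the hFc arrays. The 4 lens markers averaged -4.65 to 0.13 on the VEGF-A arrays, -4.55 to 0.60 on the Dll4-Fc arrays, -2.99 to 2.11 on the VEGF Trap arrays and -4.01 to 1.31 on the hFc arrays, a wide spread within each group. Every measured marker, those of rods and cones, bipolar and amacrine cells included, was well above background on every array. The part of these markers in the differences of the guidance genes was not tested.

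**Figure D4:**
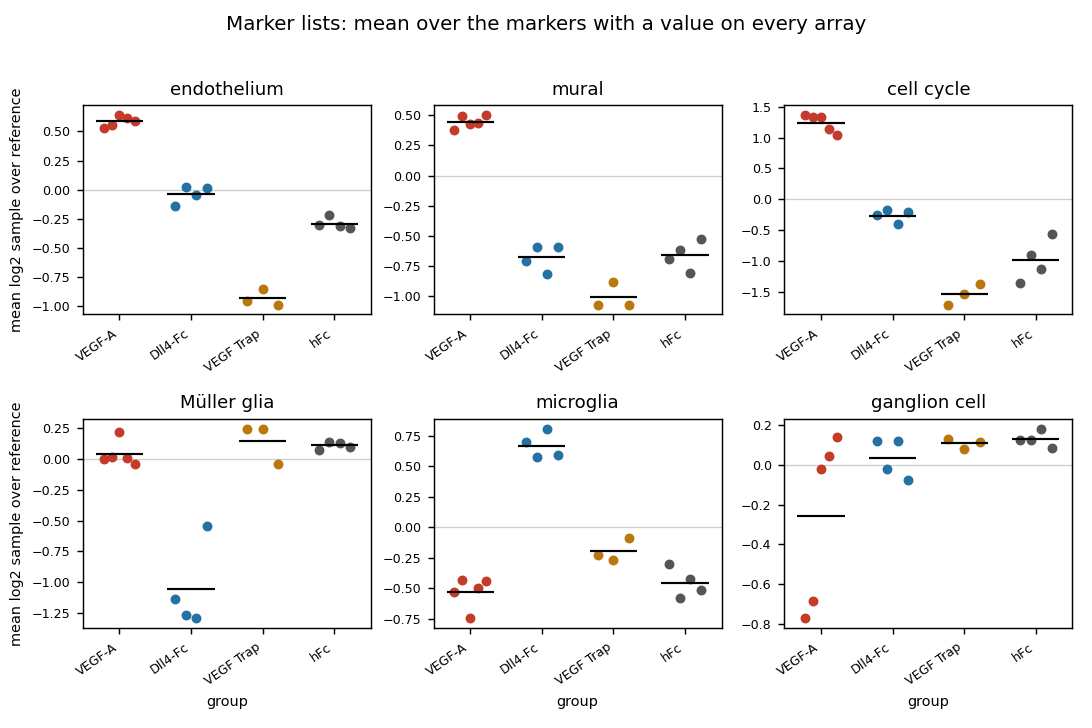
Mean log2 sample over reference of 6 marker lists on each array, by group; points are arrays and lines are group means, over the markers with a value on every array. Endothelial, mural and cell-cycle means are highest on the VEGF-A arrays, the Müller glia mean is lowest and the microglia mean highest on the Dll4-Fc arrays, and 2 VEGF-A arrays stand low for ganglion cell markers.

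The second comparison asked what Dll4-Fc changes against hFc. Ephb1, Plxnc1 and Sema4a fell and Plxnb3 rose; the 4 called were 6.9% of the 58 members tested, beside 4.57% of all genes tested (3.06% rising, 1.52% falling). At an unadjusted p under 0.05 there were 14, beside 2936 of 23063 genes. The median difference of the members was -0.08, beside -0.02 over all genes. The arrays of 12 of the 58 members did not overlap, against 2699 of the 23063 genes (11.7%). None of the 6 ephrins, 9 EphA receptors, 3 Slits, 2 Robos, 2 netrins and 4 Unc5 receptors tested was called. The comparisons of the 3 treatments share the hFc arrays, and the later ones share the VEGF-A arrays.

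Ephb1, the receptor that turns part of the ganglion cell axons to the same side at the optic chiasm, read -0.37, -0.19, -0.45 and -0.26 on the Dll4-Fc arrays, against 0.55, 0.33, 0.53 and 0.056 on the hFc arrays. All Dll4-Fc arrays were below all hFc arrays, by 0.68 on average (log2 difference -0.68, SE 0.13, adjusted p = 0.00511), or 1.61 times. Plxnb3 read 0.70, 0.38, 0.47 and 0.40 on the Dll4-Fc arrays, against 0.31, 0.02, 0.17 and -0.10 on the hFc arrays. It was thus higher with Dll4-Fc (0.39, SE 0.10, adjusted p = 0.0333) and lower with VEGF-A than with hFc.

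Plxnc1 read -0.092, -0.16, -0.11 and -0.013 on the Dll4-Fc arrays, all below the lowest hFc array, at 0.062 (difference -0.28, SE 0.07, adjusted p = 0.0303). Sema4a, a membrane semaphorin, read -0.26, -0.12, -0.30 and -0.28 on the Dll4-Fc arrays, against 0.27 and -0.022 on the 2 hFc arrays with a value (-0.37, SE 0.09, adjusted p = 0.0344). Among these 4 genes only the call of Ephb1 held without each array in turn. That of Plxnb3 ended without Dll4-Fc 1 or 3 or hFc 2, 3 or 4 (adjusted p 0.0573 to 0.118), that of Plxnc1 without Dll4-Fc 1, 2 or 3 or hFc 2 or 3 (0.077 to 0.108), and that of Sema4a without Dll4-Fc 1, 3 or 4 or hFc 3 (0.07 to 0.453). Other probes of Plxnc1 gave -0.58 and -0.62 and were not called.

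Of the members that VEGF-A raised, none was called here on its brightest probe. Plxnd1 differed from hFc by 0.03 (95% interval -0.21 to 0.27), Epha2 by 0.06 (-0.16 to 0.28), Efna1 by -0.15 (-0.40 to 0.10) and Sema3g by 0.32 (-0.02 to 0.66). Unc5b read -0.25, -0.13, 0.14 and 1.00 on the Dll4-Fc arrays, all above the highest hFc array, at -0.30. Its difference of 0.66 (SE 0.21, adjusted p = 0.111) was not called, and it was called without Dll4-Fc 1, at 0.81. The second Robo4 probe was higher with Dll4-Fc than with hFc by 0.33 (SE 0.08, adjusted p over all probes 0.0302).

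Müller glia markers averaged -1.29 to -0.54 on the Dll4-Fc arrays, against 0.07 to 0.14 on the hFc arrays, with 6 of 8 lower, and microglia markers averaged 0.58 to 0.81 against -0.58 to -0.30, with 6 of 6 tested higher. The Dll4-Fc array nearest to hFc for Müller glia markers was Dll4-Fc 4, which also held the value of 1.00 for Unc5b. The part of these cell types in the Ephb1, Plxnb3, Plxnc1, Sema4a and Unc5b differences was not tested.

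**Figure D5:**
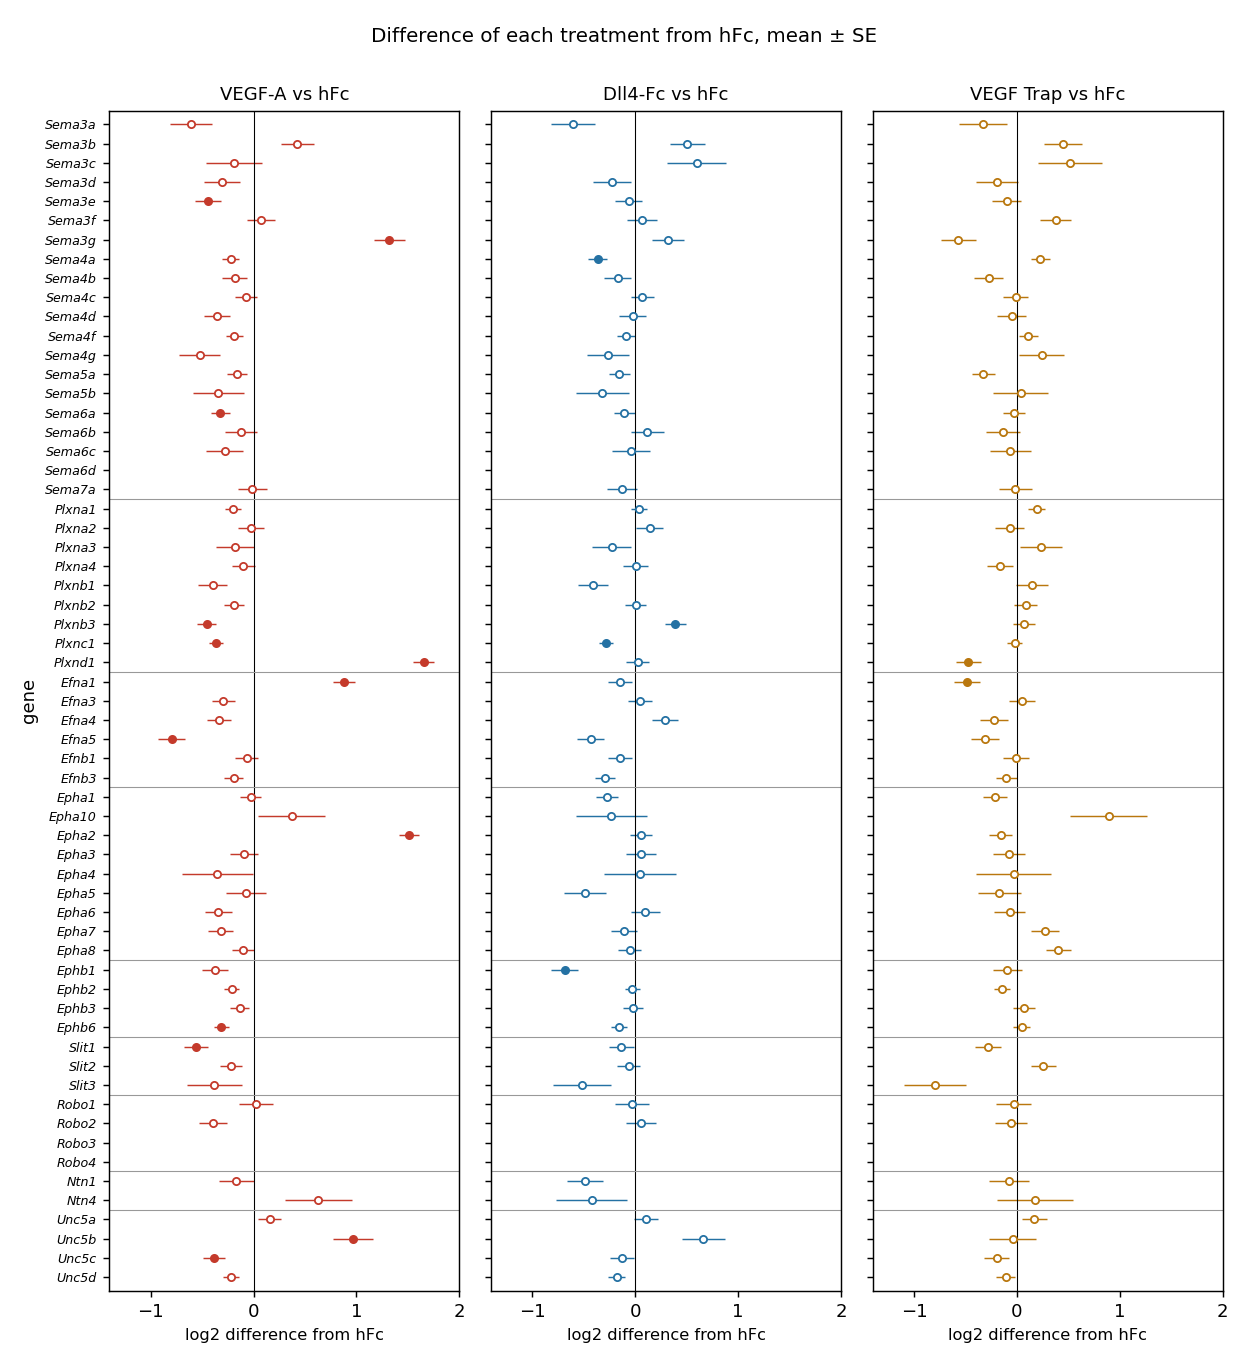
Difference of each treatment from hFc in log2 sample over reference for the members (rows, by family), one panel per treatment; points are differences of group means, bars are standard errors, and filled points are called at an adjusted p under 0.05. The VEGF-A panel has 13 filled points, the Dll4-Fc panel 4 and the VEGF Trap panel 2; Robo3, Robo4 and Sema6d have no point.

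The third comparison asked what withdrawal of VEGF by VEGF Trap changes against hFc. Plxnd1 and Efna1 fell and no member rose. These 2 were 3.45% of the 58 members tested, beside 3.72% of all genes tested (1.3% rising, 2.43% falling), and 12 members had an unadjusted p under 0.05, beside 4888 of the 23063 genes. With hFc 1 and hFc 2 averaged to 1 sample, 0 members were called, with 481 genes in place of 859. The median difference was -0.05, beside -0.02 over all genes. The arrays of 15 of the 58 members did not overlap, against 5874 of the 23063 genes (25.5%).

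Plxnd1 read -1.14, -1.21 and -1.04 on the VEGF Trap arrays, below all 4 hFc arrays given above, with a difference of -0.47 (SE 0.12, adjusted p = 0.0444), or 1.39 times. Efna1 read -0.69, -0.28 and -0.87 on the VEGF Trap arrays, also below every hFc array (-0.49, SE 0.13, adjusted p = 0.0474), and a second Efna1 probe was called at -0.47. Both calls were close to the threshold. That of Plxnd1 ended without any one of the 7 arrays (adjusted p 0.0696 to 0.163), and that of Efna1 ended without any one of hFc 1, 2, 3 or 4 or VEGF Trap 1 or 3 (0.0748 to 0.195). Sema3g read -1.12, -0.94 and -1.11 on the VEGF Trap arrays, below all hFc arrays, with a difference of -0.57 (SE 0.17, adjusted p = 0.0782). The second Robo4 probe was lower with VEGF Trap by 0.44 (log2 difference -0.44, SE 0.09, adjusted p over all probes 0.0198). The endothelial markers given above, of which 9 of 10 fell, moved the same way, and their part in these differences was not tested.

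VEGF-A and VEGF Trap stand at opposite ends of VEGF supply and share slides 3 and 4, so this comparison can be made within slides. It does not use the hFc arrays and has no missing member. In VEGF-A retinas 7 members were higher: Plxnd1, Robo4, Sema3g, Epha2, Efna1, Unc5b and Sema6d. Another 12 were lower: Sema4g, Epha7, Plxnb1, Plxnb3, Epha8, Efna5, Slit2, Sema4a, Plxna1, Ephb6, Plxnc1 and Sema4f. The 19 called were 31.1% of 61 members, beside 19.2% of all 23641 genes tested (10.6% rising, 8.6% falling). The median difference was -0.19, beside -0.03 over all genes. The arrays of 25 of the 61 members did not overlap, against 5959 of the 23641 genes (25.2%). Of 20 semaphorins 2 rose and 3 fell, and of 9 plexins 1 rose and 4 fell. By role, 3 of 31 ligands rose and 5 fell, and 4 of 30 receptors rose and 7 fell.

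Plxnd1 averaged 1.00 ± 0.19 on the VEGF-A arrays and -1.13 ± 0.09 on the VEGF Trap arrays (SD, n = 5 and 3), a difference of 2.12 (SE 0.12, adjusted p = 3.78e-09), or 4.36 times. The brightest Robo4 probe read 0.77, 0.80, 0.89, 0.93 and 0.98 on the VEGF-A arrays, against -1.02, -1.03 and -0.98 on the VEGF Trap arrays. Both groups were tight, and the difference was 1.89 (SE 0.08, adjusted p = 1.05e-08), or 3.70 times. Epha2 read -0.78, -0.67 and -0.68 on the VEGF Trap arrays, and its VEGF-A arrays were higher by 1.67 (SE 0.11, adjusted p = 2.66e-08). Sema3g differed by 1.89 (SE 0.16, adjusted p = 7.61e-07). Efna1 was 2.58 times, Unc5b 2.01 times and Sema6d 1.86 times higher with VEGF-A (adjusted p = 9.12e-07, 0.00417 and 2.71e-05).

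Within slides these genes kept their direction. Plxnd1 differed by 2.37 on slide 3 and 1.90 on slide 4, Robo4 by 1.81 and 1.92, Epha2 by 1.68 and 1.63, and Sema3g by 1.66 and 2.07. Efna1 differed by 1.097 on slide 3 and 1.71 on slide 4, Sema6d by 1.02 and 0.69, and Unc5b by 0.86 and 1.25, where Unc5b was not called on slide 3 (adjusted p = 0.091). With slide as a block, 16 of the 61 members were called, where 13.8% of all genes were. Slide 3 alone gave 10 members (13% of all genes), and slide 4 alone, which holds 1 VEGF Trap array, gave 19 (12.4%). A test of whether the difference itself differed between the slides called none of the 61 members (limma; 11 at an unadjusted p under 0.05, beside 2850 of 23521 genes, of which 87 were called).

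The members lower with VEGF-A had smaller differences, and from slide 3 alone 10 of the 12 were not called, all but Sema4a and Plxnc1. Epha8, Plxnc1 (at -0.25) and Sema4f lost their calls from slide 4 alone, which holds 1 VEGF Trap array. Sema4a read -0.072, -0.074, -0.13, -0.08 and -0.13 on the VEGF-A arrays, against 0.38, 0.31 and 0.37 on the VEGF Trap arrays. Its difference of -0.45 (SE 0.08, adjusted p = 0.00105) came with no overlap. Sema4g, a membrane semaphorin, differed most, by -0.76 (SE 0.17, adjusted p = 0.00837; -0.42 on slide 3 and -1.03 on slide 4), followed by the ephrin-A receptor Epha7 at -0.59 and the Sema4d receptor Plxnb1 at -0.55. With slide as a block the calls of Epha7, Plxnb1, Slit2 and Sema4f ended (adjusted p 0.061, 0.059, 0.094 and 0.084). Without VEGF Trap 1 or 3 Plxnb1 was no longer called (0.0579 and 0.0679), nor was Slit2, a ligand of Robo1 and Robo2, without VEGF Trap 3 (0.0675), nor Sema4f without VEGF-A 1, 4 or 5 or VEGF Trap 1 or 3 (0.0535 to 0.135). The call of Slit2 also ended with the mean over its probes, and those of Slit2 and Sema4f with only the groups compared in the fit. Other probes of Efna5, Plxna1 and Plxnb1 were not called, at -0.17, -0.21 and -0.32. All 10 endothelial markers were higher with VEGF-A than with VEGF Trap, and their part was not tested.

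Dll4-Fc was also set against VEGF-A, to show where the agents differ. With Dll4-Fc 8 members were lower: Plxnd1, Epha2, Robo4, Ntn4, Efna1, Sema3g, Sema6d and Epha5. Another 7 were higher: Plxnb3, Efna4, Robo2, Epha6, Slit1, Efna5 and Plxna1. The 15 called were 24.6% of 61 members, beside 13.3% of all genes tested (6.32% rising, 6.95% falling). The median difference was 0.08, beside 0.02 over all genes. The arrays of 16 of the 61 members did not overlap, against 3405 of the 23641 genes (14.4%). Of 31 ligands 3 rose and 4 fell, and of 30 receptors 4 rose and 4 fell.

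Plxnd1 read -0.57, -0.48, -0.59 and -0.88 on the Dll4-Fc arrays, all far below the VEGF-A arrays (difference -1.63, SE 0.11, adjusted p = 4.62e-08). Epha2 read -0.49, -0.22, -0.53 and -0.72 on the Dll4-Fc arrays and differed by -1.45 (SE 0.10, adjusted p = 6.89e-08). Robo4 read -0.36, -0.088, -0.30 and -0.13 on the Dll4-Fc arrays, between the VEGF-A arrays and the VEGF Trap arrays without touching either. Its difference from VEGF-A was -1.10 (SE 0.08, adjusted p = 8.36e-07). Efna1 read -0.37, -0.17, -0.40 and -0.16 on the Dll4-Fc arrays, with a difference of -1.03 (SE 0.11, adjusted p = 7.98e-06). Sema3g fell by 1.00 and Sema6d fell by 0.83 on the log2 scale (adjusted p = 0.000219 and 2.29e-05).

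In the other direction, Plxnb3 averaged 0.49 ± 0.15 on the Dll4-Fc arrays and -0.36 ± 0.11 on the VEGF-A arrays (SD, n = 4 and 5), a difference of 0.85 (SE 0.09, adjusted p = 1.09e-05), or 1.80 times. Efna4, an ephrin that binds EphA receptors, read 0.45, 0.51, 0.38 and -0.061 on the Dll4-Fc arrays, against -0.15, -0.23, -0.40, -0.43 and -0.32 on the VEGF-A arrays. It was higher by 0.62 (SE 0.12, adjusted p = 0.00172), with array Dll4-Fc 4 nearest to VEGF-A. Unc5b, raised by VEGF-A against hFc, differed by -0.31 (95% interval -0.73 to 0.12) and was not called; without Dll4-Fc 4 it was called at -0.58.

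The calls of 6 members ended when single arrays were left out. They were Epha5 at -0.41 (without Dll4-Fc 1, 2 or 3 or VEGF-A 1, 3, 4 or 5, adjusted p 0.0664 to 0.123) and Epha6 at 0.44 (without Dll4-Fc 2, 3 or 4 or VEGF-A 1, 2, 4 or 5, 0.0525 to 0.105). Ntn4, a netrin of basement membranes, at -1.05 lost its call without any Dll4-Fc array or VEGF-A 1, 4 or 5 (0.0507 to 0.136), and Plxna1 at 0.24 without any Dll4-Fc array or VEGF-A 1, 2, 3 or 4 (0.0517 to 0.13). The call of Robo2, a Slit receptor, at 0.46 ended without Dll4-Fc 3 or 4 or VEGF-A 1, 2 or 3 (0.0595 to 0.0862), and that of Slit1 at 0.42 without Dll4-Fc 1 or 2 (0.0516 and 0.0596). Ntn4 is the dimmest member and was well above background on 3 of 4 Dll4-Fc arrays; over the alternatives its difference ran from -1.58 with Cy3 alone to -0.22 with normexp and loess. Epha6 was at 0.14 with normexp and loess, and Robo2 at 0.07 with the mean over its probes. Other probes of Efna5, Epha6, Plxna1 and Robo2 were not called. Müller glia and microglia markers differ between these groups as well: 6 of 8 Müller glia markers were lower and 1 higher with Dll4-Fc, and 7 of 7 microglia markers were higher. Of 10 endothelial markers 7 were lower and 1 higher. The part of any of these in the guidance genes was not tested.

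Over the 4 groups together, 18 of 58 members differed by the moderated F test, where 4806 of 23063 genes tested (20.8%) were called. A member not called on its brightest probe may still have differed. Sema3c differed by 0.79 (Dll4-Fc against VEGF-A), and Slit3 by -0.79 and Epha10 by 0.89 (VEGF Trap against hFc), none of them called. In VEGF-A against hFc, 7 other probes were called where the brightest was not, those of Robo4 and Sema6d among them. The second Sema5a probe read 0.66, 0.69, 0.17, 0.32 and 0.67 on the VEGF-A arrays, against 0.0024, -0.098, -0.35 and 0.033 on the hFc arrays. With the mean over probes, Sema5a and Epha5 were called higher with VEGF-A than with VEGF Trap (0.37 and 0.35), and Epha6 and Sema3f lower. Epha10, an Eph receptor without kinase activity, read 0.91 and 0.74 on VEGF-A 1 and 2, both on slide 3, and -0.73, -0.087 and -0.34 on VEGF-A 3, 4 and 5, on slide 4. The slide 3 and slide 4 VEGF-A arrays differed for 3 members by limma (Efna3 by -0.42, Ntn1 by -0.69 and Slit2 by 0.38, slide 3 minus slide 4), and for 1029 of 23521 genes. Robo3, a Robo of axons that cross the midline, ran from -0.65 to 0.73 on the VEGF-A arrays and was called in no comparison.

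Partners of these families outside the rule were read from a list of 55 genes, of which 54 were measured. With VEGF-A, 5 of 53 tested rose and 5 fell against hFc, beside the 10.2% of all genes above. Nrp1, the co-receptor that class 3 semaphorins share with VEGF-A, rose by 0.70 (SE 0.13, adjusted p = 0.00193). Mical1 and Mical2, enzymes that act on actin downstream of plexins, rose by 0.85 (2 hFc arrays) and 1.39 (adjusted p = 0.00128 and 0.00951), and the axonal adhesion protein Cntn2 fell by 0.44 (adjusted p = 0.0052). With Dll4-Fc against hFc, the adhesion protein Chl1 fell by 0.71 (adjusted p = 0.0066), Limk1, the kinase that inactivates cofilin, rose by 0.45 (adjusted p = 0.0129) and Ngef, an exchange factor downstream of EphA receptors, fell by 0.46 on 2 hFc arrays (adjusted p = 0.0327). With VEGF Trap against hFc only Cfl1, cofilin itself, was called, at -0.37 (adjusted p = 0.0441).

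Between VEGF-A and VEGF Trap 8 of 54 partners rose and 4 fell, where 19.2% of all genes were called. The 4 with the smallest p had log2 differences of 1.02 (Mical1), 1.04 (Nrp1), 0.65 (Cfl1) and 0.62 (the small GTPase Cdc42). Between Dll4-Fc and VEGF-A 6 rose and 8 fell, where 13.3% of all genes were called, and the 4 with the smallest p had log2 differences of -1.01 (Mical1), -1.10 (Chl1), 0.56 (Limk1) and -0.55 (Ngef). Efnb2 and Ephb4, the arterial ephrin and its venous receptor that the rule leaves out, were called in none of the 5 comparisons; with VEGF-A against hFc they differed by 0.06 (adjusted p = 0.752) and 0.29 (adjusted p = 0.235).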

How the data were processed

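RNA of 16 retinal samples was hybridised to 2-colour Agilent arrays. Per the file headers, Feature Extraction 9.5.1.1 gave the deposited intensities and log10 ratios of Cy5 over Cy3, already background-subtracted and dye-normalized by the authors. The sign was turned to log2 of sample (Cy3) over reference (Cy5). The series matrix that the authors deposited holds the same values on a natural log scale where it has one (correlation at least 0.999), and is empty for 25.1% to 27.5% of probes on each array. Outlier spots were left out, replicate spots averaged, and probes kept where Cy3 was well above background on 3 or more arrays (39788 of 43426 probes). The brightest kept probe stood for a gene. limma 3.58.1 (R 4.3.3) fitted 4 group means to all genes, with eBayes and 2-sided Benjamini-Hochberg adjusted p at 0.05 within each comparison. Median standard errors were 0.121 to 0.143, and array number limits precision. Simulated data had normal noise and 100 genes raised by each of 2 sizes, among 23063. Changes of 1 on the log2 scale were recovered against hFc in 76% of genes (VEGF-A), 77% (Dll4-Fc) and 61% (VEGF Trap), and changes of 0.5 in 39%, 30% and 26%. Adjusted p depends on the share of genes that change, so these rates need not hold for the real comparisons. Members, lists and rules for named genes (the smallest p called per comparison) were chosen with earlier results of these data known. Alternatives were outlier spots, background and dye correction, centring, dim probes, channel, the series matrix, probe choice, slides, array left out, and samples fitted. Promoters are RefSeq, GRCm38.p6.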

Additional observations from a re-analysis of the deposited data

Results flagged for a closer look

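Among 168 pairs of a member and a group with 4 or more arrays, 14 held 1 array apart from the others of its group, where chance gives about 5%. Slit1 read -0.0877 on Dll4-Fc 4, against 0.2577 to 0.3286 on the other Dll4-Fc arrays. Epha6 read -0.0889 on Dll4-Fc 1, against 0.3347 to 0.3596 on the others. Sema4a and Sema4g stood apart on Dll4-Fc 2, at -0.1154 (others -0.2955 to -0.2648) and 0.3241 (others -0.3254 to -0.2275). Sema6d read 0.481 on VEGF-A 3, against 0.6144 to 0.6439 on the other VEGF-A arrays. In hFc, Efna1 read -0.0112 on hFc 4 (others -0.1831 to -0.1583) Epha8 read 0.2909 on hFc 1 (others -0.2269 to -0.1402) and Plxna4 read -0.3375 on hFc 4 (others -0.1018 to -0.0841). Of members called in no comparison, Epha4 read -1.1344 and Slit3 0.5213 on VEGF-A 2, against -0.1689 to -0.0524 and -0.2013 to 0.0008 on the other VEGF-A arrays. Ephb2 read -0.2837 and Sema4d -0.686 on VEGF-A 3, against -0.1119 to -0.066 and -0.2463 to -0.0765. Among Dll4-Fc arrays, Efnb3 read -0.5098 on Dll4-Fc 4 (others -0.1482 to -0.1009) and Plxna3 read 0.3811 on Dll4-Fc 2 (others -0.3305 to -0.2249).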

How the results depend on the processing

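No call of a named member reversed in any alternative. The calls of Plxnd1, Epha2, Sema3g and Efna1 in VEGF-A against hFc, VEGF-A against VEGF Trap and Dll4-Fc against VEGF-A held in every alternative run, as did Robo4 in the last 2, Unc5b, Slit1, Ephb6 and Plxnc1 in VEGF-A against hFc, and Ephb1 in Dll4-Fc against hFc. The brightest probe of 26 members lies in the band of outlier rows. Of the members called, Sema3g, Slit1, Plxnb3, Efna4, Sema4a and Sema4g have 1 probe each, in that band. Leaving out the band could not be run for them. VEGF Trap against hFc called 2 members as reported, 0 with Cy3 alone, with hFc 1 and hFc 2 averaged or with only the groups compared in the fit, 4 with the series matrix, with outlier spots kept or without the band of rows (an alternative chosen after seeing the data), and 7 with normexp and loess. Dll4-Fc against hFc called 4 members, and 1 with only its own groups in the fit. VEGF-A against VEGF Trap called 19, and 10 from slide 3 alone. Dll4-Fc against VEGF-A called 15, and 6 of 45 without the band of rows, where fewer genes are tested; there Sema6d was at -1.03 (adjusted p = 0.059). With each array left out in turn, members called ranged from 10 to 13 (VEGF-A against hFc), 1 to 5 (Dll4-Fc against hFc; 1 without Dll4-Fc 3 or hFc 3, 2 without Dll4-Fc 1 or hFc 2), 0 to 1 (VEGF Trap against hFc), 16 to 24 (VEGF-A against VEGF Trap), 10 to 14 (Dll4-Fc against VEGF-A) and 14 to 21 (4 groups). Over all genes, VEGF Trap against hFc called 859, and 317 with Cy3 alone, 481 with hFc 1 and hFc 2 averaged, 1823 with normexp and loess, 544 with only its own groups, and 197, 392, 375, 393 and 536 without VEGF Trap 1, VEGF Trap 3, hFc 2, hFc 3 and hFc 4. VEGF-A against VEGF Trap called 4530 genes, 2923 from slide 4 alone and 2924 without VEGF Trap 1. The cause of these moves was not tested. No paired analysis was possible because no 2 groups share more than 1 code in their titles (VEGF-A 4 and VEGF Trap 3, both on slide 4, share the first part of theirs), and replicate numbers were given in accession order. All 61 members passed the filter on background.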
